A study of Mus musculus with 6 samples.

Results

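The 40 genes described here encode proteins of the cell division cycle: cyclins of the first gap phase, factors of DNA replication, enzymes of nucleotide supply, and the kinases, spindle and chromosome proteins of mitosis. They were chosen by gene symbol, as a list of replication and mitosis genes, from a table of 34745 mouse genes, and all 40 were found there. Cardiac macrophages were profiled by RNA sequencing from legumain-deficient mice (Lgmn KO, labelled LGMN-KO, replicates 1, 2 and 4) and from wild-type mice (WT, replicates 1, 2 and 3), with 3 libraries in each group. All mice were C57BL/6 and 8 weeks old, and the series design places both groups after myocardial infarction, although the labels mention coronary ligation as well as sham operation and do not assign them to animals. The cells came from digested hearts and were stained for CD45, CD64 and CD11b. Legumain is a protease of the lysosome, and the sources used here do not give the part of the gene that the Lgmn KO mice lack. Whether the libraries come from different animals is not stated in the labels; the p-values thus reflect the spread between these libraries alone, which may be technical.

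A cell enters division when D- and E-type cyclins, with their kinases, release E2F transcription factors from the retinoblastoma proteins. DNA is then copied from licensed origins, after which cyclin A, cyclin B and Cdk1 drive mitosis and the spindle checkpoint holds sister chromatids together until all are attached. Macrophages of the heart can divide in place, and colony-stimulating factor 1 is a main signal for this.

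Library totals lay between 19546253 and 24086976 counts. Levels are in CPM, which are counts relative to the library total with TMM scaling, and per-library values follow the replicate order given above. Lgmn checked the labels: its level was 83.5 ± 4.91 CPM in Lgmn KO libraries, against 2391 ± 263 CPM in WT libraries (SD, n = 3 each), and its log2 fold change was -4.84 (standard error 0.11, edgeR adjusted p = 3.23e-06). All 9 macrophage markers, among them Fcgr1 (CD64), Itgam (CD11b) and Ptprc (CD45), had counts in every library. Their summed level, 20410 to 23670 CPM in Lgmn KO and 21790 to 23660 CPM in WT, is mostly Lyz2 and Cd68. Single markers were not level: 6 of their 10 table entries (Itgam has 2) were lower in Lgmn KO at an unadjusted edgeR p below 0.05, against 10.6% of all genes tested. Fcgr1 was at 47.1%, Csf1r at 59.7% and Adgre1 at 70.5% of the WT mean, with overlapping groups in Fcgr1 and Adgre1. Cd68 and the second Itgam entry were at 113%, Ptprc at 100% and Lyz2 at 94.7% of it. Of the 10 entries C1qa alone was called by edgeR, at 19.4% of the WT mean (adjusted p = 0.0486). Their part in the values of the cell cycle genes was not tested. Of the 12546 genes tested, 99 passed an adjusted p of 0.05, which is 0.789%, with 0.478% lower and 0.311% higher in Lgmn KO.

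Most of the cell cycle genes had lower values in Lgmn KO, but none passed edgeR's test across all genes. All 40 had enough counts to be tested, and 36 had a negative and 4 a positive log2 fold change (90% negative, against 50.4% of all genes tested). Their median log2 fold change was -0.43, against -0.002 over all genes tested. The genes of mitosis and the cyclins of the first gap phase lay below WT, while the summed genes of replication and nucleotide supply were at 102% of the WT mean, and at 89.95% of it without Pcna and Cdt1. In bulk RNA, fewer dividing cells and less of these RNAs per cell cannot be told apart.

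With edgeR's quasi-likelihood test 0 of the 40 genes passed an adjusted p of 0.05, and the smallest was 0.109, for Ccnd1. At an unadjusted p below 0.05 there were 15 genes, 14 lower and 1 higher in Lgmn KO, against 17.5% of all genes tested, 10.6% lower and 6.90% higher; the 14 lower ones are 35% of the 40. DESeq2's Wald test called 3 of the 40, Ccnd1, Top2a and Bub1b, all lower (adjusted p = 0.0127, 0.0478 and 0.0426), in a test that called 6.41% of all genes and 4.15% as lower. Limma with sample weights, edgeR on unfiltered counts and edgeR with RLE factors each called 0 of the 40, and 2.71%, 1.72% and 0.717% of all genes. The Lgmn KO libraries all lay below all WT libraries in 14 genes and all above them in 1, Cdt1. These 15 are 37.5% of the 40, against 23.7% of all genes tested whose groups did not overlap in either direction. The groups overlapped in the other 25. A log2 fold change below -0.5 was found in 18 genes, or 45%, against 10.7% of all genes.

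**Figure D1:**
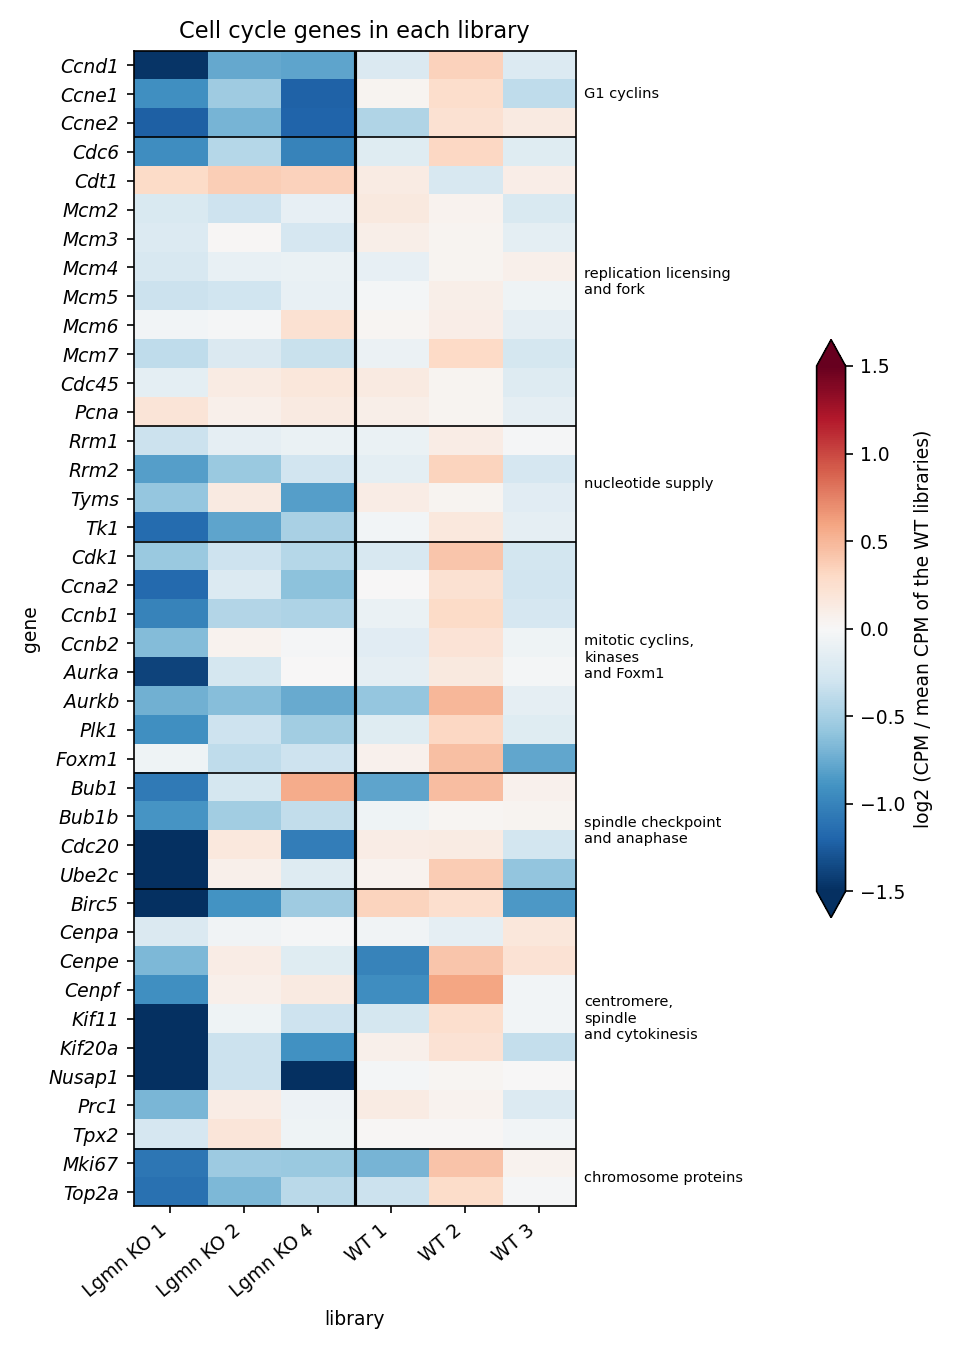
Level of each cell cycle gene in each library, as log2 of its CPM over the mean CPM of the 3 WT libraries, with genes as rows grouped by role and libraries as columns (Lgmn KO 1, 2 and 4, then WT 1, 2 and 3); blue is below and red above the WT mean, and values beyond the ends of the colour scale take the end colour. Lgmn KO replicate 1 is the lowest library in 26 of the 40 genes and WT replicate 2 the highest in 25.

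A pair of libraries stood apart in these genes. Lgmn KO replicate 1 was the lowest of the 6 libraries in 26 of the 40 genes, against 18.5% of all genes tested. WT replicate 2 was the highest in 25, against 23.4% of all genes tested (the plot of levels by library shows both). The median over the 40 genes of log2 CPM relative to the WT mean was -0.85, -0.27 and -0.31 in the Lgmn KO libraries and -0.06, 0.22 and -0.14 in the WT libraries. All Lgmn KO libraries were therefore below all WT libraries in this median, with Lgmn KO replicate 1 farthest down. Without that library the median log2 fold change was -0.26, with 31 genes negative and 7 at an unadjusted p below 0.05. Without WT replicate 2 it was -0.28, with 32 negative and 4 at an unadjusted p below 0.05. Spread between libraries was wide for many of these genes: the median coefficient of variation was 21.4% in Lgmn KO and 17.9% in WT, against 9.60% and 10.8% over all genes tested. It was not wide in the genes of replication licensing and the replication fork, at 7.43% in Lgmn KO and 9.91% in WT. The comparison was not matched for level, and many of the 40 genes had few counts.

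The DNA before the start sites of these genes was searched for letters that many of them could share. Promoters of cell cycle genes are known to hold CCAAT boxes, the element TTTGAA and E2F sites. RefSeq (GRCm38.p6) gave promoters for 32 of the 40 genes, and not for Aurkb, Ccna2, Ccnd1, Ccne2, Foxm1, Kif20a, Mcm4 and Tpx2. In the 250 bases before the start, searched on both strands, CCAAT was found in 25 of the 32 (78.1%), against 37.5% of 27025 genes. TTTGAA was found in 10 (31.2%), against 18.3% of genes, and TTTNNCGC, the E2F-type letters, in 5 (15.6%), against 4.94%. Of the 32 genes 26 held at least 1 of the 3 motifs, and 0 matches of different motifs overlapped. A match is only a run of letters, and nothing follows from it about the binding of a factor.

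The stretches shown are those of Top2a and Mki67, the chromosome proteins, of Bub1b, the spindle checkpoint gene with the smallest p, and of Cdt1, in which all Lgmn KO libraries lay above all WT libraries. Top2a lies on the minus strand at chr11:99024190-99024439, Mki67 on the minus strand at chr7:135716380-135716629, Bub1b on the plus strand at chr2:118597961-118598210 and Cdt1 on the plus strand at chr8:122567765-122568014. Each is written 5′ to 3′ and ends 1 base before the start site, and none overlaps an annotated exon. Capitals mark matches, on either strand, of the motifs.
Top2a: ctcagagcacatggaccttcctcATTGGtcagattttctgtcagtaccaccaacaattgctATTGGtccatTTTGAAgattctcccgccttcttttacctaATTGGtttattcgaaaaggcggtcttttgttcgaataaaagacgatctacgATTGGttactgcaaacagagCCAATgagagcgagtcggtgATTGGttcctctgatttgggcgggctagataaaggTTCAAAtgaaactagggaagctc
Mki67: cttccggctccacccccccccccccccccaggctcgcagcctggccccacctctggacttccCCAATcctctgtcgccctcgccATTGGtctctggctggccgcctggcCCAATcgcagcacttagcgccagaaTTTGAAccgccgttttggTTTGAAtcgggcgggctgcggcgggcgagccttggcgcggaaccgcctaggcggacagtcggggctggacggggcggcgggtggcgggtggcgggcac
Bub1b: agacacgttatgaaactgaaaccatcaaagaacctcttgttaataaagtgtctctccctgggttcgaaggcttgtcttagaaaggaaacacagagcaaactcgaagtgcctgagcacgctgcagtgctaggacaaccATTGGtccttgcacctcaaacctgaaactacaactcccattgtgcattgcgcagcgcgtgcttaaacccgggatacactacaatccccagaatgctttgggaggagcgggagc
Cdt1: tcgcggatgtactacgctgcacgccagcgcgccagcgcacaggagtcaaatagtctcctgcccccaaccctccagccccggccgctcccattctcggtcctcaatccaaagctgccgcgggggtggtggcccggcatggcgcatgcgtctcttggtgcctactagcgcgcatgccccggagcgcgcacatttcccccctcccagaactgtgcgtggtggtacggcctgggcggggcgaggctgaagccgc
The CCAAT box was matched 6 times in Top2a, 3 times in Mki67, 1 time in Bub1b and 0 times in Cdt1. The element TTTGAA was matched 2 times each in Top2a and Mki67 and 0 times in the others.

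The G1 cyclins had the lowest values relative to WT of all roles. Ccnd1, cyclin D1, links growth signals to the start of division and lies on chromosome 7 from 144929931 to 144939869 (the table's positions, read as GRCm38). It was at 2.96, 4.86 and 4.76 CPM in the Lgmn KO libraries and at 7.11, 10.5 and 7.17 CPM in the WT libraries. Every Lgmn KO library was below every WT library. Its log2 fold change was -0.97 (standard error 0.25), with a 95% interval of -1.55 to -0.39 (edgeR, adjusted p = 0.109). Ccne1, cyclin E1, the partner of Cdk2 at the start of replication, was at 2.02, 2.66 and 1.65 CPM in Lgmn KO and at 3.94, 4.63 and 2.96 CPM in WT. Its groups did not overlap either (log2 fold change -0.86, standard error 0.27, edgeR adjusted p = 0.159). Ccne2, cyclin E2, had the lowest of the 3 fitted values, -1.02, from 15 to 46 counts a library. Summed, the 3 cyclins were at 5.72, 8.59 and 7.17 CPM in Lgmn KO and at 12.3, 17.1 and 12.1 CPM in WT, which puts the Lgmn KO mean at 51.8% of the WT mean. The percentage was 56.9% without Lgmn KO replicate 1 and 58.8% without WT replicate 2. Exons of LTO1 on the other strand cover 23.4% of the exon bases of Ccnd1, and those of Ints8 17.4% of Ccne2, and without a stated strand setting their reads cannot be told apart.

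**Figure D2:**
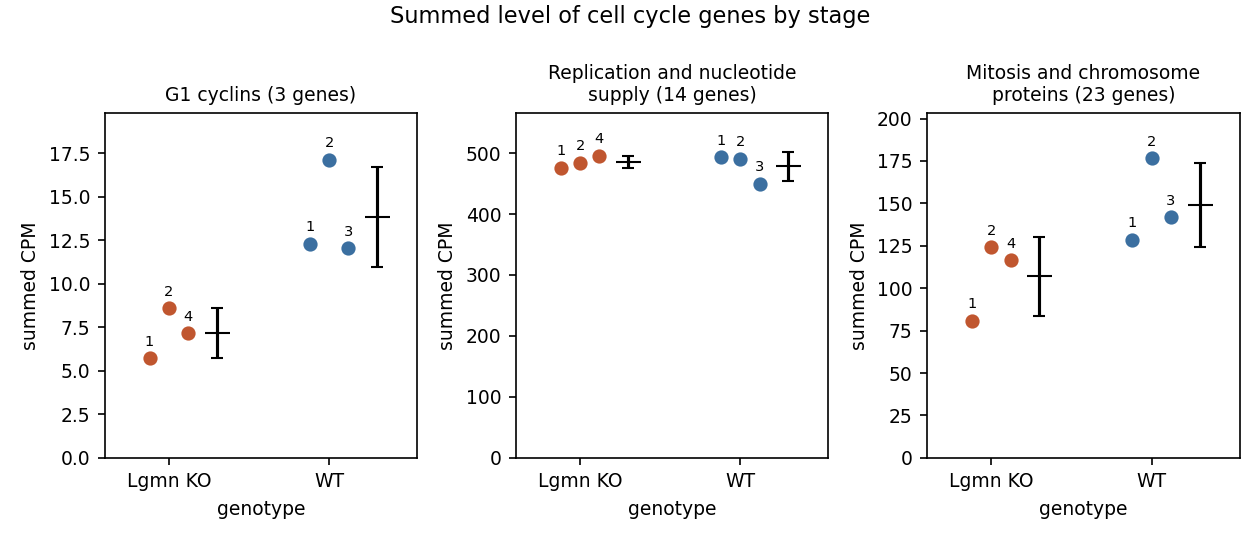
Summed CPM of the 3 G1 cyclins, the 14 genes of replication and nucleotide supply and the 23 genes of mitosis and chromosome proteins, each on its own linear axis from 0; points are libraries with their replicate number, and bars show mean and SD of 3 libraries, Lgmn KO left of WT. The sums do not overlap for G1 cyclins and mitosis, and overlap for replication, where the Lgmn KO mean is 102% of the WT mean with Pcna and Cdt1 and 89.95% without them.

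Of the genes of replication licensing and the replication fork 6 had negative and 4 positive values, with a median of -0.15, and their sum was carried by Pcna and Cdt1. The 10 genes summed to 432, 433 and 444 CPM in Lgmn KO and to 438, 425 and 393 CPM in WT, 104% of the WT mean. Without Pcna and Cdt1 the other 8 summed to 164, 177 and 181 CPM in Lgmn KO and to 192, 199.8 and 174 CPM in WT, 92.2% of the WT mean. Both sums overlapped between the groups. Cdt1, which loads the replicative helicase on origins, was the only one of the 40 genes higher in all Lgmn KO libraries, at 74.8, 78.7 and 77.7 CPM, than in all WT libraries, at 66.2, 51.5 and 65.4 CPM. Its log2 fold change, 0.34 (standard error 0.11), had an interval of 0.09 to 0.58 and did not pass the test (edgeR, adjusted p = 0.165). Its promoter stretch, shown above, held none of the 3 motifs. The same was true of Birc5, Ccne1, Nusap1, Tk1 and Tyms, which all had negative log2 fold changes. Cdc6, which works with Cdt1 in loading the helicase, was lower in every Lgmn KO library than in any WT library, with means of 1.33 ± 0.306 CPM in Lgmn KO libraries against 2.27 ± 0.476 CPM in WT libraries (SD, n = 3 each, log2 fold change -0.77, standard error 0.29, edgeR adjusted p = 0.228). The 2 loading factors had values of opposite sign, neither past the threshold.

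Pcna, the sliding clamp that holds DNA polymerase on its template, was at 193, 177 and 185 CPM in Lgmn KO and at 179, 174 and 154 CPM in WT. The groups overlapped, and the log2 fold change of 0.13 had an interval of -0.05 to 0.32 (edgeR, adjusted p = 0.439). A near-identical processed copy, Pcna-ps2, was counted at 80.1 ± 7.25 CPM in Lgmn KO, against 78.4 ± 4.62 CPM in WT (n = 3 each, SD), so the counting may have split reads between them and the level of Pcna is uncertain. The helicase subunits Mcm2 to Mcm7 had log2 fold changes from -0.31 (Mcm7) to 0.06 (Mcm6), none called by edgeR or DESeq2, with standard errors from 0.09 to 0.16. Of these only Mcm5 had groups that did not overlap, at 15.0 ± 1.24 CPM in Lgmn KO, against 17.8 ± 0.967 CPM in WT (n = 3 each, SD). Over all genes tested, 23.7% had groups that did not overlap in either direction. Cdc45, which joins the helicase to the fork, had a value of 0.06.

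Among the enzymes of nucleotide supply, all 4 had negative values and edgeR called 0. Rrm2 and Tk1 were lower at an unadjusted edgeR p below 0.05, against 10.6% of all genes tested. Tk1, thymidine kinase, was at 1.18, 1.53 and 1.89 CPM in Lgmn KO and at 2.58, 2.96 and 2.42 CPM in WT. The groups did not overlap, and the log2 fold change was -0.79 (standard error 0.25, edgeR adjusted p = 0.175). Rrm2, the subunit of ribonucleotide reductase made in S phase, was at 5.53, 6.64 and 8.01 CPM in Lgmn KO and at 8.86, 12.4 and 8.22 CPM in WT. It showed the same separation by a small margin (log2 fold change -0.54, standard error 0.21, edgeR adjusted p = 0.246). Rrm1, the large subunit, was at 34.1, 38.9 and 39.9 CPM in Lgmn KO and at 39.9, 46.1 and 42.2 CPM in WT, and did not pass (log2 fold change -0.18, edgeR adjusted p = 0.375). Tyms, thymidylate synthase, had -0.37 with overlapping groups.

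**Figure D3:**
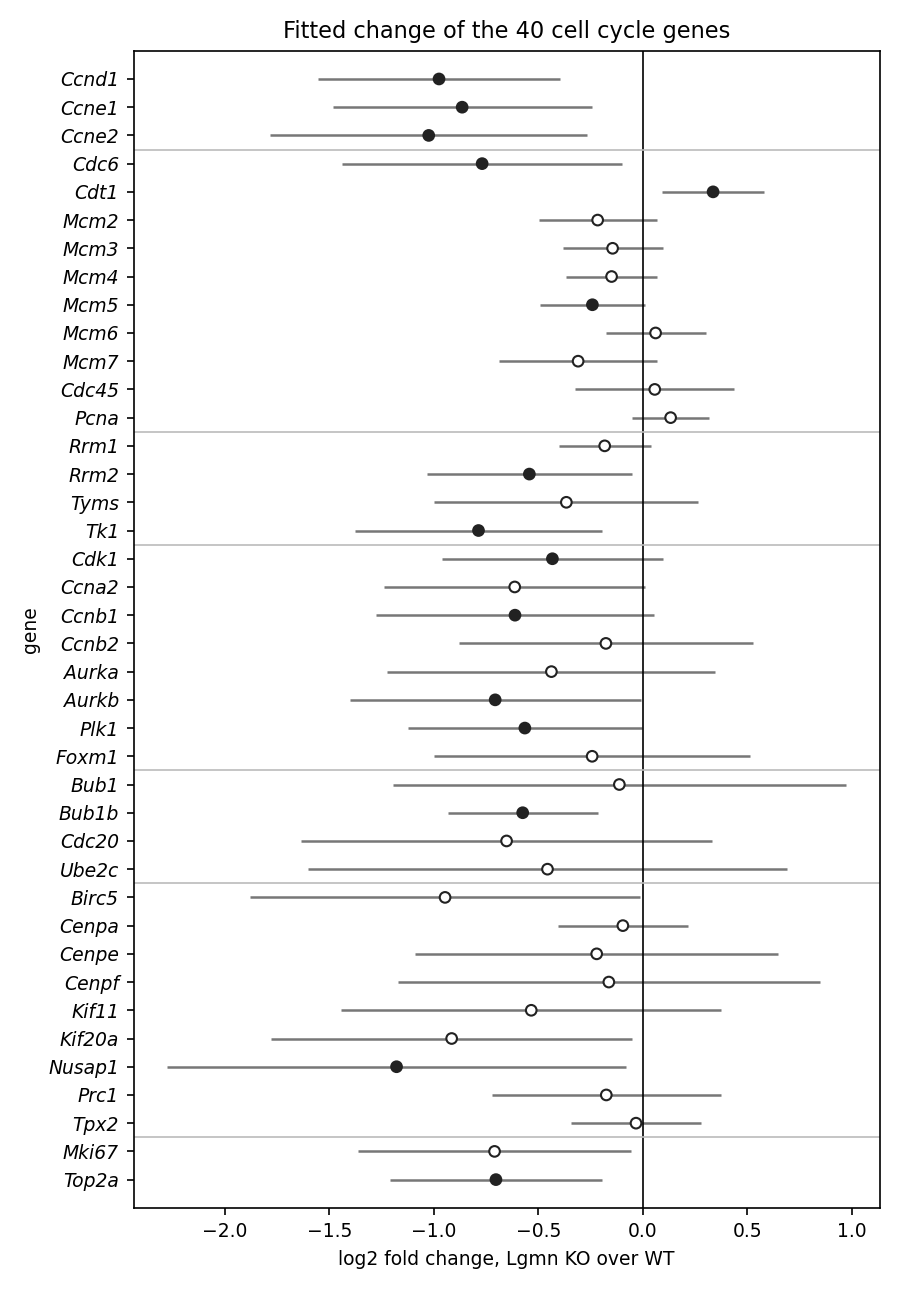
Fitted log2 fold changes (Lgmn KO over WT) of the 40 genes, with 95% intervals as lines and role groups separated by grey rules; filled points have groups that do not overlap. Values run from -1.18 (Nusap1) to 0.34 (Cdt1), and 36 lie below 0.

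The 23 genes of mitosis and chromosome structure all had negative values, with a median of -0.53. EdgeR called 0 of them, with 8 lower at an unadjusted p below 0.05, against 10.6% of all genes tested. DESeq2 called Bub1b and Top2a, both lower, in a test that called 4.15% of all genes as lower. The summed level of the 23 genes was 80.7, 124 and 116 CPM in Lgmn KO and 129, 177 and 142 CPM in WT, with means of 107 ± 23.2 CPM and 149 ± 24.9 CPM (SD, n = 3 each). The Lgmn KO mean was 71.9% of the WT mean, 80.7% without Lgmn KO replicate 1 and 79.2% without WT replicate 2. Lgmn KO replicate 1 was the lowest library in 18 of the 23, and WT replicate 2 the highest in 16. The difference between these genes and those of replication was not tested.

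Of the 8 mitotic cyclins, kinases and Foxm1, 4 had groups that did not overlap, against 23.7% of all genes tested in either direction. These 4 were Cdk1, Ccnb1, Aurkb and Plk1. Cdk1, the kinase that starts mitosis, was at 3.80, 4.50 and 4.15 CPM in Lgmn KO and at 4.72, 7.45 and 4.63 CPM in WT (log2 fold change -0.43, edgeR adjusted p = 0.380). Aurkb, the kinase that corrects wrong attachments, was at 2.07, 2.20 and 2.03 CPM in Lgmn KO and at 2.29, 4.86 and 3.13 CPM in WT. Much of the Aurkb difference lay in WT replicate 2 and the Lgmn KO libraries were close together (log2 fold change -0.71, edgeR adjusted p = 0.279). Plk1, a kinase of spindle assembly and mitotic exit, was at 2.27, 3.48 and 3.02 CPM in Lgmn KO and at 3.80, 5.37 and 3.79 CPM in WT (log2 fold change -0.56, edgeR adjusted p = 0.282). Ccnb1, the last of the 4 without overlap, had a value of -0.61. Ccna2, Ccnb2 and Aurka had values of -0.61, -0.18 and -0.44, with overlapping groups. Foxm1, a transcription factor that drives genes of mitosis, had -0.24 with overlapping groups. The 8 genes together were at 71.1% of the WT mean.

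Bub1b, the spindle checkpoint kinase-like protein that restrains the anaphase-promoting complex, had the smallest p of the mitosis genes. It was at 6.66, 8.54 and 9.52 CPM in Lgmn KO and at 11.7, 12.5 and 12.6 CPM in WT. All Lgmn KO libraries were below all WT libraries, and the log2 fold change was -0.57 (standard error 0.15), with an interval of -0.93 to -0.22 (edgeR, adjusted p = 0.124). Cdc20, which activates the anaphase-promoting complex, was at 1.78, 6.34 and 2.78 CPM in Lgmn KO and at 6.18, 6.20 and 4.71 CPM in WT. Lgmn KO replicate 2 lay above all WT libraries, so the groups overlapped (log2 fold change -0.65, standard error 0.42, edgeR adjusted p = 0.484). Ube2c, its ubiquitin-conjugating partner, and Bub1, a checkpoint kinase, had -0.46 and -0.11. The 4 genes together were at 69.5% of the WT mean.

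In the 9 genes of the centromere, spindle and cytokinesis 1 had groups that did not overlap, against 23.7% of all genes tested in either direction. This was Nusap1, which bundles spindle microtubules. It was at 0.493, 1.23 and 0.330 CPM in Lgmn KO and at 1.51, 1.57 and 1.54 CPM in WT, from 7 to 37 counts a library. Its log2 fold change, -1.18, was the lowest of all 40 (standard error 0.47, edgeR adjusted p = 0.258). Kif20a, a kinesin of cytokinesis, was at 1.78, 5.47 and 3.63 CPM in Lgmn KO and at 7.20, 7.96 and 5.34 CPM in WT (log2 fold change -0.91, edgeR adjusted p = 0.262). Lgmn KO replicate 2 lay within the WT range by a small margin, and exons of Cdc23 on the other strand cover 29.3% of the exon bases of Kif20a. Tpx2, which builds the spindle near chromosomes, was at 11.7, 15.8 and 13.3 CPM in Lgmn KO and at 14.1, 14.1 and 13.5 CPM in WT (log2 fold change -0.03, interval -0.35 to 0.28). Birc5, survivin of the same complex as Aurkb, had -0.95 with overlapping groups. Cenpa, Cenpe, Cenpf, Kif11 and Prc1 had values from -0.53 to -0.10, and their groups overlapped.

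Top2a, the topoisomerase that untangles sister chromatids, was at 7.95, 10.8 and 13.01 CPM in Lgmn KO and at 13.8, 20.8 and 17.1 CPM in WT. All Lgmn KO libraries were below all WT libraries (log2 fold change -0.70, standard error 0.22, edgeR adjusted p = 0.161). Mki67, the Ki-67 protein that coats mitotic chromosomes and is a common stain for dividing cells, was at 12.7, 18.4 and 18.3 CPM in Lgmn KO and at 16.6, 36.3 and 28.0 CPM in WT. WT replicate 1 was between Lgmn KO values, so the groups overlapped (log2 fold change -0.71, standard error 0.28, edgeR adjusted p = 0.254). Without WT replicate 1 the value was -0.96 with an edgeR adjusted p of 0.0401, in a fit that called 4.99% of all genes. That fit left out the WT library that overlapped the Lgmn KO values, and Mki67 was called in no other alternative. Both promoters, printed above, held CCAAT and TTTGAA matches.

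Scaled to gene length (FPKM), levels ran from 52.5 for Pcna to 0.110 for Ccne2 in the Lgmn KO mean, and from 48.3 for Pcna to 0.141 for Cenpf in the WT mean. Cdt1 followed Pcna, at 35.0 and 28.0 FPKM, and Rrm1 came next, at 9.37 and 10.7 FPKM (Lgmn KO and WT). Of the 40 genes 14 had at least 1 FPKM in every library. Since Pcna and Cdt1 hold much of the summed level, the sum of all 40 was 599.7 ± 32.2 CPM in Lgmn KO, against 641 ± 40.9 CPM in WT (n = 3 each, SD), 93.6% of the WT mean. Without Pcna and Cdt1 it was 337 CPM in Lgmn KO, against 411 CPM in WT, 82.1% of the WT mean.

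Other genes of the pathway were taken from 6 lists, of which 123 genes were tested and 0 were called by edgeR, while 21 were lower and 3 higher at an unadjusted p below 0.05. These 24 are 19.5% of the 123, near the 17.5% of all genes tested, with 17.1% lower and 2.44% higher, against 10.6% and 6.90%. DESeq2 called 7 of them, Csf1r, Maf, Il4ra, Rb1, Ccng2, Ccnd2 and Dck, or 5.69%, near its 6.41% of all genes. Limma with sample weights called 4, against 2.71% of all genes, and edgeR on unfiltered counts 3, against 1.72%, also close to the shares over all genes. Ccnd2, cyclin D2, was at 2.02, 2.86 and 2.12 CPM in Lgmn KO and at 3.99, 6.16 and 5.55 CPM in WT (log2 fold change -1.16, edgeR adjusted p = 0.0734). Its groups did not overlap, as with cyclin D1, and it was 1 of 11 negative values among 15 other cyclins and kinases, whose median was -0.09. Cdk4, the partner of the D cyclins, had 0.08. The 42 other mitosis genes tested had 36 negative values and a median of -0.31, with Mad2l1, a spindle checkpoint protein, at -0.47 (edgeR adjusted p = 0.147) and Nek2, a centrosome kinase, at -1.38 (edgeR adjusted p = 0.163). The 35 other replication genes had 22 negative values and a median of -0.04, and Dck, the deoxycytidine kinase, was at -0.77 (edgeR adjusted p = 0.181).

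**Figure D4:**
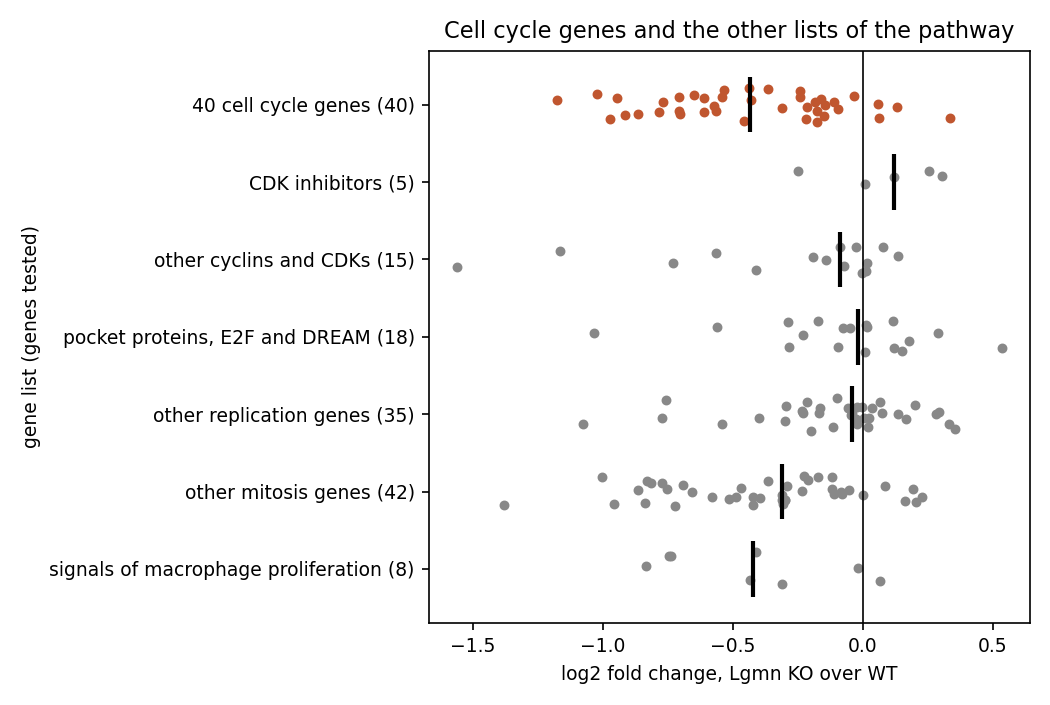
Fitted log2 fold changes (Lgmn KO over WT) of each tested gene of the 40 cell cycle genes and of 6 other lists, with 1 row per list; points are genes and black bars are medians. Medians are -0.43 for the 40 genes, -0.31 for the other mitosis genes and -0.04 for the other replication genes.

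Upstream of the cycle, Cdkn1a was the only tested inhibitor of cyclin-dependent kinases whose groups did not overlap. Cdkn1a, the p21 inhibitor of cyclin-dependent kinases, was at 91.3, 90.3 and 103 CPM in Lgmn KO and at 85.8, 76.5 and 76.4 CPM in WT. All Lgmn KO libraries were above all WT libraries, with a log2 fold change of 0.25 (edgeR, adjusted p = 0.184). Rb1, the retinoblastoma protein that holds E2F, was at 139, 145 and 155 CPM in Lgmn KO and at 83.4, 98.8 and 120 CPM in WT (log2 fold change 0.54, edgeR adjusted p = 0.0963). Among 18 pocket, E2F and DREAM genes 9 had negative and 9 positive values. Of the 5 tested inhibitors 4 had positive values, with a median of 0.12, from -0.25 for Cdkn2c to 0.30 for Cdkn1c, and Cdkn2d was at 0.01. Cdkn2a and Cdkn2b, at 51.4% and 42.3% of the WT mean, had too few counts to be tested. Among signals of macrophage proliferation 7 of 8 had negative values and the median was -0.42. Csf1r, the receptor for colony-stimulating factor 1, was at 486, 555 and 610 CPM in Lgmn KO and at 686, 1116 and 964 CPM in WT (log2 fold change -0.74, edgeR adjusted p = 0.0916). Its groups did not overlap, and 0 of the 8 genes were called by edgeR. Maf, a transcription factor known to restrain macrophage division, was at 61.3, 75.4 and 76.6 CPM in Lgmn KO and at 91.5, 154 and 135 CPM in WT (log2 fold change -0.84, edgeR adjusted p = 0.0862). Csf1 itself had -0.41.

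Fibroblast markers, dendritic cell markers and the T and NK cell markers other than Il7r had lower summed levels in every Lgmn KO library than in any WT library. The 9 neutrophil markers summed to 22.2, 20.75 and 22.7 CPM in Lgmn KO and 20.4, 18.8 and 17.3 CPM in WT, higher by a small margin. This sum is mostly S100a8, whose groups overlapped. Of the 4 neutrophil markers tested 2 had negative and 2 positive values, with 0 at an unadjusted edgeR p below 0.05. The 8 fibroblast markers summed to 45.8, 118 and 103 CPM in Lgmn KO and to 155, 181 and 133 CPM in WT, with Lgmn KO replicate 1 lowest and WT replicate 2 highest, as in the mitosis genes. The same 2 libraries were lowest and highest for the macrophage markers Fcgr1, Adgre1, Csf1r, Mertk, C1qa and 1 entry of Itgam. This was not so for Cd68, Ptprc, Lyz2 and the second Itgam entry. All 6 fibroblast markers that could be tested had negative values, and edgeR called 0. Of these 6, 4 were lower at an unadjusted edgeR p below 0.05, against 10.6% of all genes tested. Postn and Lum, the 2 fibroblast markers left untested, were close to 0 counts in both groups. For Postn the mean was 146.5% of WT, with library counts of 0, 10 and 14 (Lgmn KO) against 3, 6 and 9 (WT). Lum was lower, counted 0 times in Lgmn KO, but only 1, 5 and 2 times across the WT libraries. Il7r, the most abundant of the 14 T and NK cell markers, ran the other way, at 1135, 1153 and 1361 CPM in Lgmn KO and at 815, 941 and 1050 CPM in WT (log2 fold change 0.38, edgeR adjusted p = 0.154), and with it the list was at 128% of the WT mean. The 13 other markers summed to 1.63, 2.15 and 2.07 CPM in Lgmn KO and to 6.47, 16.5 and 15.4 CPM in WT, and Cd8a, Nkg7, Gzma and Gzmb had 0 counts in Lgmn KO. Their counts in the WT libraries were low too: 7, 36 and 18 for Cd8a and 1, 15 and 15 for Nkg7. Gzma had 0, 11 and 0 and Gzmb 1, 59 and 7 counts in WT. Trac, the T cell receptor alpha chain, was called lower among the 13 markers (edgeR, adjusted p = 0.0465) and was named after its value was seen. The 8 dendritic cell markers summed to 3.26, 4.91 and 5.19 CPM in Lgmn KO and to 5.31, 15.8 and 11.0 CPM in WT. Their part in the values of the cell cycle genes was not tested.

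**Figure D5:**
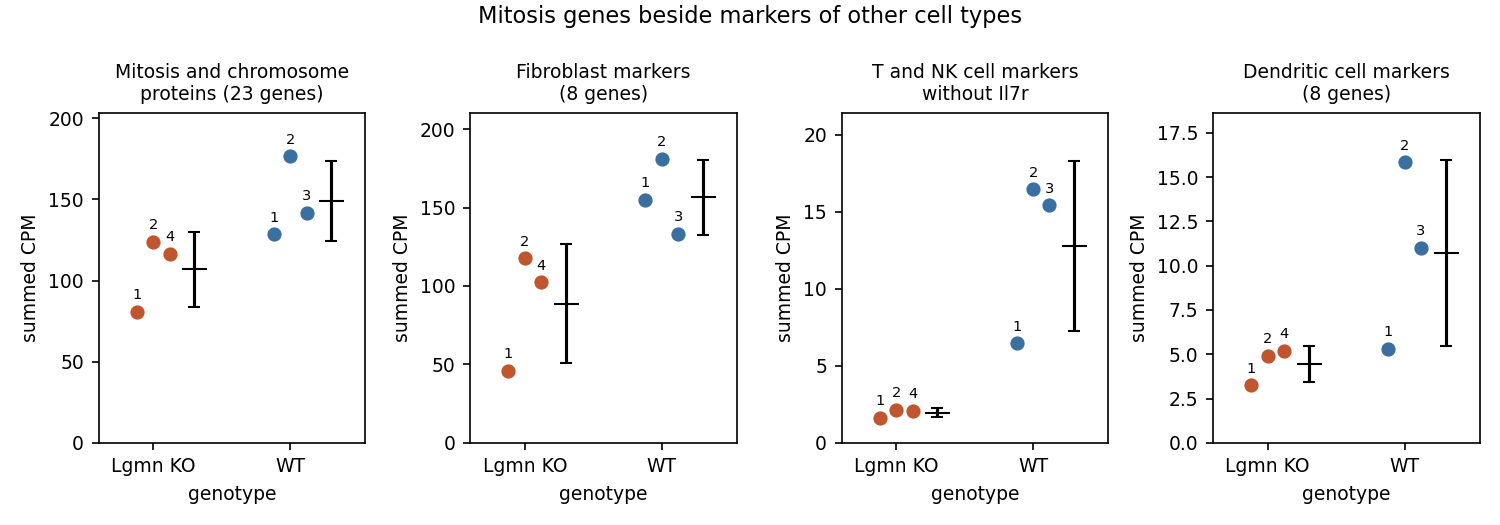
Summed CPM, on linear axes from 0, of the 23 mitosis and chromosome genes and of the fibroblast, T and NK cell (without Il7r) and dendritic cell markers; points are libraries with their replicate number, and bars show mean and SD of 3 libraries, Lgmn KO left of WT. In each panel WT replicate 2 is the highest library, and the Lgmn KO points lie below all WT points. This does not hold for most lists left out of the figure. Sums of macrophage, monocyte, B cell, endothelial and cardiomyocyte markers overlapped between the groups. Neutrophil sums, and T and NK cell sums with Il7r, were higher in every Lgmn KO library than in any WT library. Erythroid sums were lower, at no more than 1.08 CPM.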

How the data were processed

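Levels were measured by RNA-seq in 3 Lgmn KO and 3 WT libraries, grouped by title and genotype. Per the file headers, the deposited table gives a count and an FPKM value (count scaled to gene length and library total) per gene and library. HISAT2, TopHat and TopHat2 2.0.9, and a human build (hg38), are named in the submitters' processing notes, although the table's positions are mouse ones, read as GRCm38. The sources used here do not give how reads were counted, strand setting included. The counts were filtered with filterByExpr and scaled by TMM, and Lgmn KO was tested over WT, without covariates, by the quasi-likelihood test of edgeR 4.0.16 (R 4.3.3). The Benjamini-Hochberg adjustment ran over all 12546 genes tested, and genes were called at 0.05. The deposited FPKM values were described and not tested. The common biological coefficient of variation was 16.1%. Intervals are 95% intervals of the fitted value. Library totals were 19546253 to 24086976 counts.

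The 40 genes were matched by symbol, and of the 128 genes in 6 pathway lists Sgol2 was not matched and Cdkn2a, Cdkn2b, Cenpm and Il34 had too few counts to be tested. Genes and lists were chosen with earlier results of these data known. In each role the 2 genes with the smallest p and the 1 with the highest mean have their libraries given (Cdc6 by its mean and SD), with Mki67, Top2a, Cdk1 and Pcna, and from each pathway list 1 to 4 of the 3 of smallest p and 2 of highest mean, and Csf1 was added after its value was seen. Exon overlaps are from GENCODE M21, and promoters from RefSeq. Alternatives were DESeq2 1.42.0, limma 3.58.1 with sample weights, RLE factors, no filter, a threshold of 0.1, a replicate block and each library left out. The edgeR procedure was tested on simulated data.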

Additional observations from a re-analysis of the deposited data

How the results depend on the processing

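With 3 libraries a group, single libraries moved the counts. The number of genes called was 99, against 804 with DESeq2, 318 with no filter, 340 with limma sample weights and 503 at a threshold of 0.1, and 6 to 639 when 1 library was left out. Of the 40 cell cycle genes 0 were called, against 3 with DESeq2 and 0 to 1 when 1 library was left out. Of the other pathway genes 0 were called, against 7 with DESeq2, 3 with no filter, 4 with limma sample weights, 5 at a threshold of 0.1 and 0 to 7 when 1 library was left out. The median over the 40 genes stayed negative, from -0.54 to -0.26 with 1 library left out. The ratio of summed CPM was 0.936 and lay between 0.909 and 0.978 over its alternatives. Shared replicate numbers (1 and 2) do not show a pairing: deviations of same-numbered libraries correlated at 0.122 and 0.076. A replicate block over these 4 libraries gave 33 genes called, 0 of the 40 cell cycle genes and a median of -0.59, and the same 4 libraries without the block, added after seeing the data, gave 4, 0 and -0.60. For 9 of the 40 genes the fitted sign changed in at least 1 alternative, all with values within 0.24 of 0 in the full fit. With 1 library left out the values ran from -0.03 to 0.12 for Mcm6, -0.03 to 0.16 for Cdc45, -0.30 to 0.02 for Ccnb2, -0.52 to 0.06 for Foxm1, -0.62 to 0.21 for Bub1, -0.54 to 0.04 for Cenpe, -0.47 to 0.25 for Cenpf, -0.34 to 0.04 for Prc1 and -0.15 to 0.07 for Tpx2, the highest always without Lgmn KO replicate 1 or WT replicate 2. Mcm6 and Cdc45 were at -0.09 and -0.10 with the block and both at -0.09 in its 4 libraries without it, and Foxm1 and Tpx2 at 0.09 and 0.01 with limma weights. The cause was not tested. Members near 1 CPM rest on few counts, and intervals as wide as those of Nusap1 and Bub1 limit what can be read from them.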

Other observations

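The other marker lists, as summed CPM, were 666, 555 and 596 in Lgmn KO and 535, 798 and 598 in WT for 7 monocyte markers, a sum that is mostly Chil3 and F13a1, and 24.7, 31.5 and 42.8 in Lgmn KO and 43.4, 37.8 and 43.2 in WT for 9 endothelial markers, mostly Kdr. Of the 4 endothelial markers tested Kdr was at 101% of the WT mean. Flt1, Pecam1 and Esam were at 14.3%, 17.3% and 48.1% of it, with all Lgmn KO libraries below all WT libraries in each. The other 5 had too few counts to be tested. Among the monocyte markers Ccr2 was at 12.8%, Ly6c2 at 30.8% and Hp at 54.3% of the WT mean, with all Lgmn KO libraries below all WT libraries in each (edgeR adjusted p = 0.0727, 0.215 and 0.0825). The 6 B cell markers summed to 10.8, 8.59 and 11.6 CPM in Lgmn KO and to 7.30, 10.5 and 21.0 CPM in WT. Markers of cardiomyocytes and erythroid cells summed to at most 4.40 and 0.971 CPM in Lgmn KO and 4.72 and 1.08 CPM in WT. Among all marker lists edgeR called C1qa, Trac, Zbtb46 and Flt1, all lower in Lgmn KO (adjusted p = 0.0486, 0.0465, 0.0410 and 0.0150), and these were named after their values were seen.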
